A study of Sus scrofa with 6 samples.

Results

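The genes described here are those of sterol regulatory element-binding protein (SREBP) driven cholesterol and fatty acid synthesis, measured by RNA sequencing in porcine immature Sertoli cells with and without a stable form of vitamin C. They are 41 genes chosen by symbol: 7 regulators of SREBP, 18 enzymes of sterol synthesis, 6 genes of sterol handling and 10 genes of the fatty acid branch. Of these, 39 matched a row among the 17670 genes of the count table, and MBTPS2 and PMVK matched none and were not analysed here. After the filter on low counts 37 of the 39 were among the 12701 genes tested, and TM7SF2 and MYLIP were not. The cells were labelled immature Sertoli cells, the nurse cells of the seminiferous tubule, from pig testis at 80 to 90 days of gestation. They were grown in medium with 10% fetal bovine serum and an antibiotic. The serum itself carries cholesterol and fatty acids, and the control and treated cells shared this medium. Control cells received no treatment that the labels name, and treated cells received L-ascorbic acid 2-phosphate (AA2P) at 250 µM after 6 h of culture. Treatment length is not given in the sources used here. Each group had 3 libraries. The labels do not say whether they stem from different animals or cultures. The p-values therefore reflect the spread of these samples alone, and that spread may be technical.

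SREBPs are transcription factors made as precursors in the membrane of the endoplasmic reticulum, where SCAP, which senses cholesterol, escorts them and the INSIG proteins hold them back when sterols are plentiful. When sterols are scarce the complex moves to the Golgi, the proteases encoded by MBTPS1 and MBTPS2 cut the precursor, and the released domain enters the nucleus and switches on genes of lipid synthesis. SREBF2 encodes the form best known for the sterol enzymes, SREBF1 the forms best known for the fatty acid enzymes, and INSIG1 is itself a target of the pathway. Sertoli cells make and take up cholesterol and clear lipid-rich remnants of germ cells.

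Library totals ran from 18747307 to 23521291 counts. Levels are given as CPM, counts scaled to library size with TMM factors, and 3 counts, the limit that a count of 0 allows, correspond to 0.123 to 0.165 CPM (counting error only). On a first principal component with 84.4% of the variance, AA2P library 3 lay at 28.4 and AA2P libraries 1 and 2 at 41.4 and 39.3, with the controls between -39.0 and -33.6, so library 3 stood nearer the controls. Among 16 Sertoli markers 11 had a row. AMH was at 34.7 to 37.8 CPM in the controls and 32.7 to 37.1 with AA2P, SOX9 at 11.0 to 12.3 and 1.70 to 2.58, and WT1 at 37.8 to 45.5 and 19.9 to 28.2. INHA and DHH had at most 3 counts in every library and NR5A1 at most 5, so these defining markers were at or near 0, which goes against the label. Of 8 tested Sertoli markers 2 were higher and 5 lower with AA2P, against 26.0% and 26.1% of all tested genes, and the list summed to 10038 to 10564 CPM in the controls and 4063 to 5002 with AA2P, most of it from VIM. Of 11 renal tubule markers 10 had a row, among which 9 were higher and 1 lower with AA2P, against the same shares, and their sum was 436 to 495 CPM in the controls and 1235 to 1644 with AA2P. PAX2 was the highest of them in the controls and LRP2 with AA2P, and both were present in every library. Smooth muscle markers summed to 553 to 563 and 469.6 to 538 CPM (TAGLN highest, MYH11 at 3 counts or fewer), and hepatocyte and enterocyte markers to 148 to 166 and 243 to 257 CPM (APOA1 highest). Leydig markers, 3 of 6 with a row, summed to 5.58 to 5.84 CPM in the controls and 6.36 to 7.38 with AA2P. STAR was highest, with CYP17A1 and INSL3 at 3 counts or fewer. Endothelial markers, 2 of 5 with a row, summed to 2.03 to 2.87 and 6.08 to 8.03 CPM (PECAM1 highest). Leukocyte markers, 4 of 5 with a row, summed to 0.766 to 1.55 and 5.09 to 5.81 CPM. AIF1 was highest, with CSF1R and CD163 at 3 counts or fewer. Germ cell markers, 2 of 5 with a row, summed to 0.386 to 0.437 and 0.149 to 0.411 CPM (DDX4 highest). Adipocyte markers, 5 of 6 with a row, summed to 15.1 to 16.7 and 17.4 to 19.4 CPM. PPARG was highest, with ADIPOQ, FABP4 and CIDEC at 3 counts or fewer. Markers without a row could not add to these sums. The part of the Sertoli and renal tubule markers in the results that follow was not tested, and in bulk libraries a change in the cells that express a gene cannot be told apart from a change in RNA per cell.

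The genes of sterol synthesis were higher with AA2P in every AA2P library, those of the fatty acid branch were mostly higher by smaller amounts, and the regulators and sterol handling genes went both ways. In edgeR's quasi-likelihood F test, with Benjamini-Hochberg adjustment over all tested genes, 28 of the 37 tested members were higher and 6 lower with AA2P at an adjusted p of 0.05, and 3 were not called. Over all tested genes 52.1% were called, 26.0% higher and 26.1% lower. The median log2 fold change was 0.51 over the 37 members and -0.00049 over all tested genes. Among the members 14 rose at least 2-fold, against 5.53% of all tested genes, and none fell as much, against 3.48%. Control and AA2P values did not overlap in 34 of the 37 members, with AA2P above in 28 and below in 6, against 59.3% of all tested genes (29.8% above and 29.5% below). When library totals replaced TMM factors, the median of all tested genes moved by 0.17 on the log2 scale and 5727 genes were called higher and 1822 lower, or 45.1% and 14.3%, in place of 3302 and 3313. Under that scaling 30 members were higher and 3 lower. The changes given here are relative to the TMM scaling.

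**Figure D1:**
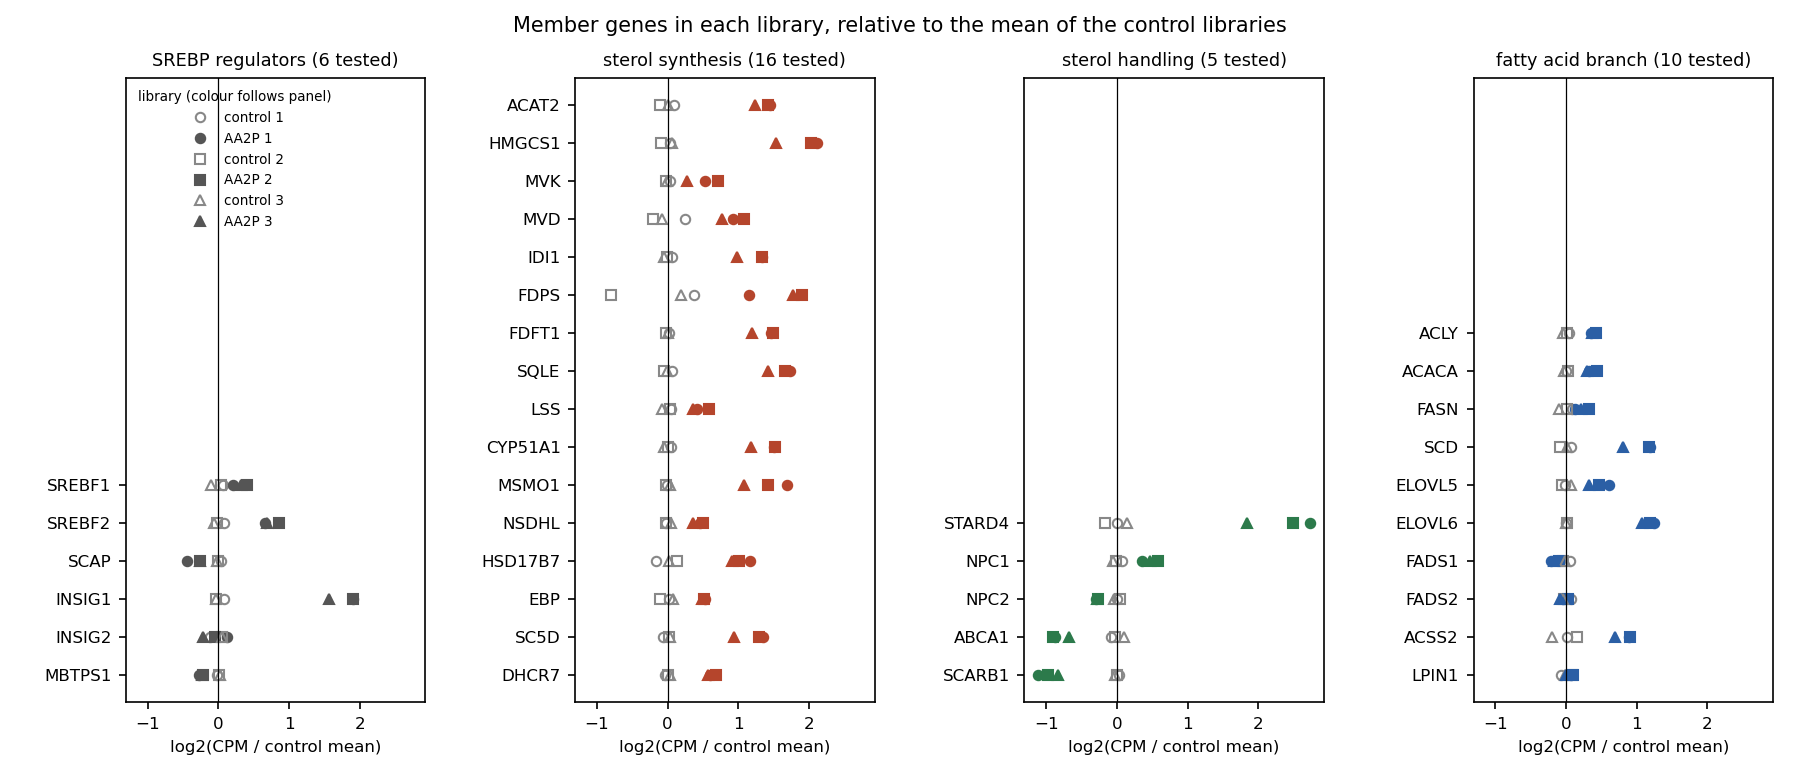
Each tested member in each of the 6 libraries, as the log2 ratio of its CPM to the mean of the 3 control libraries (open grey, control; filled, AA2P; circle, square and triangle for libraries 1, 2 and 3), in panels for the 4 groups of genes. All 16 sterol synthesis genes lie to the right of their controls in every AA2P library, while ABCA1, SCARB1 and SCAP lie to the left and INSIG2, FADS2 and LPIN1 overlap.

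Among the regulators, the transcript of SREBF2 had a larger fitted rise than that of SREBF1, and the genes for the escort protein and the first protease fell. SREBF2 was at 159, 148 and 143 CPM in control libraries 1 to 3 and 235, 271 and 240.4 CPM in AA2P libraries 1 to 3. All AA2P libraries lay above all controls, and the fitted log2 fold change was 0.73 (SE 0.06). SREBF1 was at 72.8, 70.9 and 64.6 CPM in control libraries 1 to 3 and 80.1, 91.4 and 86.7 CPM in AA2P libraries 1 to 3. Its groups did not overlap either, with AA2P library 1 the closest to the highest control, at 80.1 against 72.8 CPM. The log2 fold change was 0.31 (SE 0.06). With edgeR and Benjamini-Hochberg adjustment, SREBF2 had an adjusted p of 3.53e-08 and SREBF1 of 0.000596. SREBF1 did not pass when the change tested for was beyond 1.2-fold (adjusted p = 0.264). The count table has 1 row for SREBF1 and so does not separate its isoforms.

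The pair of INSIG genes, which encode the proteins that retain SCAP in the endoplasmic reticulum, differed in what was measured. INSIG1 was at 38.2, 35.3 and 35.2 CPM in control libraries 1 to 3 and 136, 135 and 107 CPM in AA2P libraries 1 to 3. The AA2P libraries lay far above the controls, with library 3 the lowest of them, and INSIG1 rose 3.48-fold (adjusted p = 4.19e-11 by edgeR with Benjamini-Hochberg adjustment). INSIG2 was at 8.43, 9.48 and 9.47 CPM in control libraries 1 to 3 and 9.96, 8.82 and 7.81 CPM in AA2P libraries 1 to 3. Its groups overlapped, with the highest and the lowest value of all 6 libraries both among the AA2P libraries, and the 95% interval of its log2 fold change ran from -0.29 to 0.20. The sign of that small difference was positive with library totals or without AA2P replicate 3. The RefSeq gene table of the Sscrofa11.1 assembly lists INSIG2 at 2 places, so its reads could be shared with a copy.

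SCAP and MBTPS1, which encode the escort and the Golgi protease that makes the first cut, were lower with AA2P. SCAP was at 109, 105 and 104 CPM in control libraries 1 to 3 and 77.9, 88.0 and 88.0 CPM in AA2P libraries 1 to 3. MBTPS1 was at 177, 181 and 182 CPM in control libraries 1 to 3 and 148, 155 and 154 CPM in AA2P libraries 1 to 3. In both genes every AA2P library lay below every control, and the falls were small, 1.25-fold for SCAP (adjusted p = 0.000171) and 1.18-fold for MBTPS1 (adjusted p = 0.000438, edgeR with Benjamini-Hochberg adjustment). With library totals MBTPS1 lost its call, and neither gene passed when the change tested for was beyond 1.2-fold. In all, 3 of the 6 tested regulators were higher and 2 lower, against 26.0% and 26.1% of all tested genes, or 3 and 1 with library totals, against 45.1% and 14.3%.

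**Figure D2:**
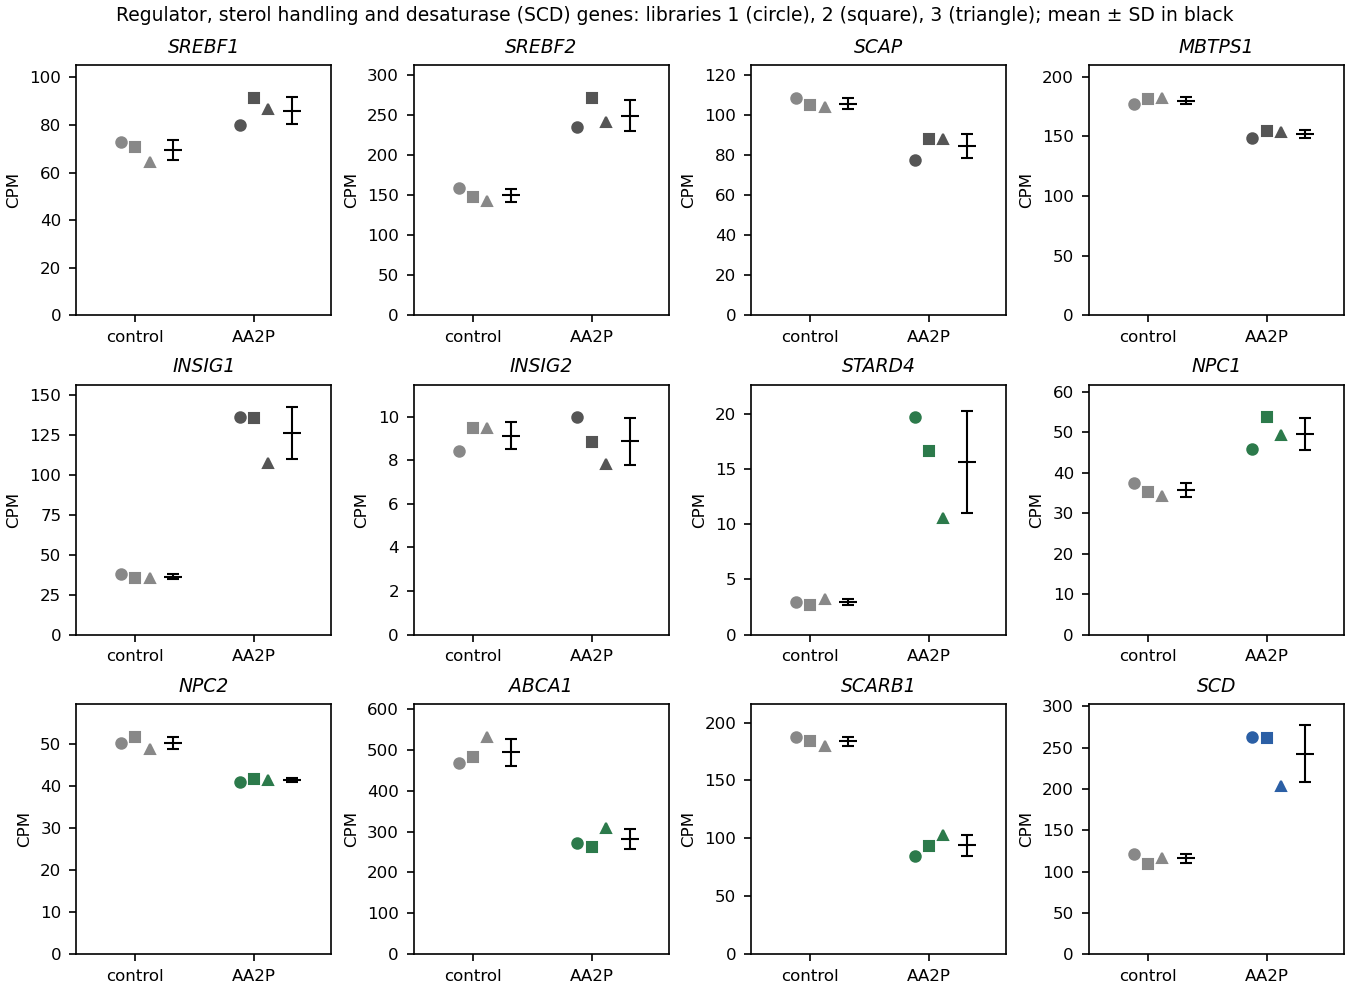
CPM of 12 members in the control (grey) and AA2P (coloured) libraries, with the mean ± SD of 3 libraries in black and each axis starting at 0. INSIG1 and STARD4 separate most widely upward, SCARB1 and ABCA1 downward, and INSIG2 overlaps between the groups.

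The tested enzymes of the sterol synthesis list rose without exception. That covers the listed genes and not each step of the pathway. All 16 tested genes of the 17 with a row were called higher, against 26.0% of all tested genes, with log2 fold changes from 0.44 to 1.91 and a median of 1.21. At least a 2-fold rise was seen in 10 of them, and all 16 were called without AA2P replicate 3 as well, with a median of 1.33. Adjusted p-values of the 16 genes lay between 4.81e-11 (SQLE) and 0.00110 (FDPS) in the edgeR fit with Benjamini-Hochberg adjustment. FDPS had so few control counts that it passed the filter through the AA2P libraries, and with a filter of 1 CPM in 3 libraries, which left it out, 15 of 15 genes were called.

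The first steps build mevalonate and the isoprene units. ACAT2, the cytosolic thiolase that joins acetyl-CoA units, was at 32.1, 27.8 and 30.3 CPM in the controls against 82.2, 80.4 and 70.8 CPM with AA2P. It rose 2.58-fold. ACAT2 overlaps the chaperonin gene TCP1 in the Sscrofa11.1 gene table, and reads of the overlap could be counted for either gene. TCP1 was at 304 ± 8.98 to 321 ± 4.66 CPM (mean ± SD, n = 3), with an adjusted p of 0.168 by edgeR with Benjamini-Hochberg adjustment, and its part in the ACAT2 result was not tested. HMGCS1, which encodes the cytosolic synthase that makes HMG-CoA, was at 61.2, 55.8 and 62.2 CPM in the controls against 258, 244 and 173 CPM with AA2P. This was the largest fitted log2 fold change among the 16 enzymes, 1.91 (SE 0.11), and AA2P library 3 lay well below the other AA2P libraries but above all controls. MVK, mevalonate kinase, was at 12.8, 12.4 and 12.4 CPM in the controls against 18.0, 20.5 and 15.1 CPM with AA2P, a rise of 1.42-fold in which AA2P library 3 was the closest to the controls. MVD, the decarboxylase that yields isopentenyl diphosphate, went from 13.6 ± 2.19 to 25.8 ± 2.77 CPM (mean ± SD, n = 3). IDI1, the isomerase of that product, went from 53.5 ± 2.23 to 125 ± 17.2 CPM.

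At the branch point, FDPS, farnesyl diphosphate synthase, had 11, 4 and 9 counts in the controls against 17, 29 and 32 with AA2P. These are few counts, at a level of 0.220 to 1.44 CPM, and whether they come from the annotation or counting used was not tested. Its log2 fold change of 1.60 has a 95% interval from 0.86 to 2.35. FDFT1, squalene synthase, commits carbon to sterols and was at 47.2, 46.1 and 47.1 CPM in the controls against 129, 131 and 107 CPM with AA2P. SQLE, squalene epoxidase, the first oxygen-dependent step, was at 40.7, 37.4 and 38.5 CPM in the controls against 129, 123 and 104 CPM with AA2P. In FDFT1 and SQLE the controls lay within a few CPM of each other and the AA2P libraries far above, with rises of 2.60-fold and 3.05-fold. LSS, which closes the sterol ring, rose less, 1.37-fold, at 103, 102 and 94.1 CPM in the controls against 132, 148 and 128 CPM with AA2P.

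The later enzymes trim lanosterol to cholesterol. CYP51A1, lanosterol demethylase, and MSMO1, the methylsterol oxidase, rose 2.65-fold and 2.66-fold. MSMO1 was at 26.8, 26.5 and 27.6 CPM in the controls against 86.5, 72.4 and 57.2 CPM with AA2P. The AA2P libraries of MSMO1 differed among themselves more than the controls did, with library 3 lowest. NSDHL and HSD17B7, which act with MSMO1 in removing methyl groups, rose 1.36-fold and 2.05-fold. SC5D, the desaturase that places a late double bond, went from 18.4 ± 0.687 to 42.3 ± 6.22 CPM (mean ± SD, n = 3). EBP, the sterol isomerase, went from 32.3 ± 2.08 to 46.0 ± 0.784 CPM, and DHCR7, the last reductase of the pathway, from 25.3 ± 0.588 to 39.0 ± 1.66 CPM. TM7SF2, a sterol reductase, had 2 counts in each control against 7, 7 and 9 with AA2P, and was not tested. The same doubt about annotation and counting holds for its level.

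The fitted rises covered a wide range. MVK, MVD, LSS, NSDHL, EBP and DHCR7 had log2 fold changes of 0.50, 0.92, 0.45, 0.44, 0.51 and 0.62, under the 2-fold line, and the other 10 ran from 1.04 to 1.91. Taken by position, the 7 tested genes from ACAT2 to FDFT1 had a median of 1.37 and the 9 from SQLE to DHCR7 a median of 1.04. Genes with small and large changes stood side by side, as SQLE with LSS and MSMO1 with NSDHL.

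**Figure D3:**
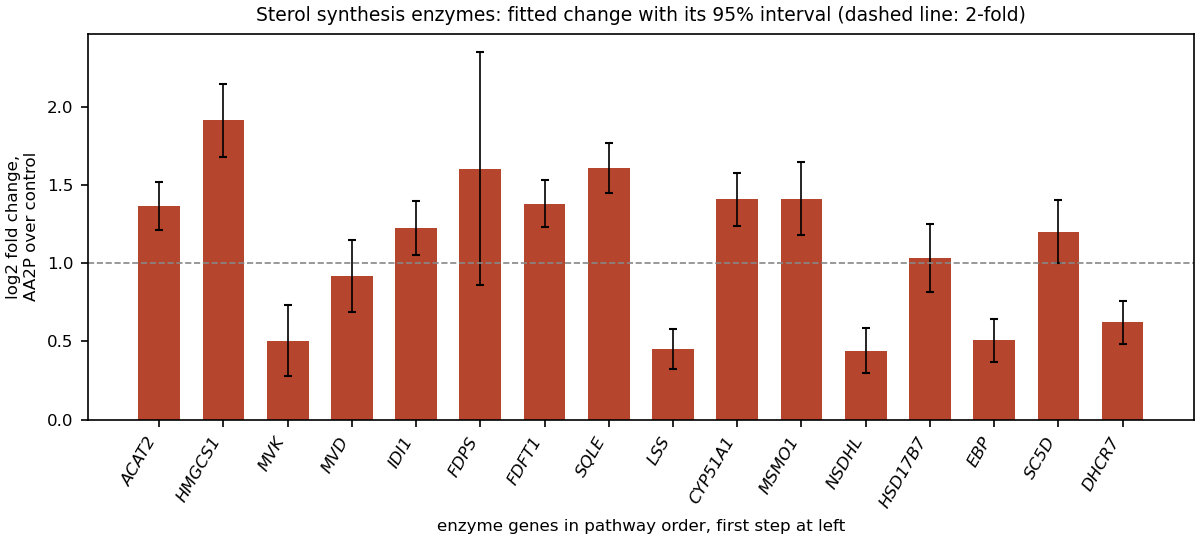
Fitted log2 fold change, AA2P over control, of the 16 tested sterol synthesis genes in pathway order, with 95% intervals from the quasi-likelihood fit and a dashed line at a 2-fold change. All bars lie above 0, HMGCS1 is the tallest at 1.91, and the interval of FDPS, with few counts, is the widest.

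Sterol handling genes went both ways, also within a pair that acts together. STARD4, which carries cholesterol between membranes inside the cell, was at 2.97, 2.65 and 3.25 CPM in control libraries 1 to 3 and 19.7, 16.6 and 10.6 CPM in AA2P libraries 1 to 3. It had the largest rise of all 37 tested members, 5.22-fold (log2 fold change 2.38, SE 0.20), and it was also uneven: the value of AA2P library 3 was the closest to those of the controls. NPC1 and NPC2 encode the membrane and the luminal protein that together export cholesterol from late endosomes. NPC1 was at 37.5, 35.3 and 34.3 CPM in the controls against 45.9, 53.7 and 49.3 CPM with AA2P. It overlaps the gene C6H18orf8 in the Sscrofa11.1 gene table, and reads of the overlap could be counted for either of them. NPC2 was at 50.3, 51.7 and 48.7 CPM in the controls against 40.9, 41.7 and 41.5 CPM with AA2P. The groups did not overlap in either gene, and NPC1 rose 1.39-fold while NPC2 fell 1.21-fold (adjusted p = 2.32e-05 and 0.000637, edgeR with Benjamini-Hochberg adjustment). With library totals NPC2 lost its call (log2 fold change -0.11, adjusted p = 0.109).

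Lipoprotein exchange genes fell. ABCA1, the exporter that hands cholesterol to apolipoprotein A-I, was at 468, 483 and 532 CPM in control libraries 1 to 3 and 271, 263 and 309.9 CPM in AA2P libraries 1 to 3. SCARB1, the receptor for high-density lipoprotein that Sertoli cells also use to take up dying germ cells, was at 188, 184 and 179.6 CPM in control libraries 1 to 3 and 84.8, 93.8 and 103 CPM in AA2P libraries 1 to 3. Every AA2P library lay below every control in both genes, by wide gaps, and the log2 fold changes were -0.81 (SE 0.06) and -0.97 (SE 0.06), with adjusted p-values of 2.22e-08 and 2.14e-09 by edgeR with Benjamini-Hochberg adjustment. AA2P library 3 was the nearest to the controls in each. MYLIP, which encodes a ligase that tags lipoprotein receptors for breakdown, had 1 to 4 counts in every library and was not tested. Of the 5 tested genes of the group 2 were higher and 3 lower, against 26.0% and 26.1% of all tested genes, with a median log2 fold change of -0.28. With library totals 2 were higher and 2 lower, against 45.1% and 14.3% of all tested genes. The median was then -0.11, against 0.17 over all tested genes.

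In the fatty acid branch most genes rose, by fitted amounts that were mostly smaller than in the sterol branch. Of its 10 tested genes 7 were called higher and 1 lower, against 26.0% and 26.1% of all tested genes, with a median log2 fold change of 0.37. With library totals 9 were called higher and none lower, against 45.1% and 14.3% of all tested genes. The median was then 0.54, against 0.17 over all tested genes. The supply of carbon comes first: ACLY, which makes cytosolic acetyl-CoA from citrate, was at 187, 183 and 176 CPM in the controls against 233, 244 and 235 CPM with AA2P, a rise of 1.30-fold. ACSS2, which makes it from acetate, was at 14.6, 16.0 and 12.5 CPM in the controls against 26.6, 26.8 and 23.3 CPM with AA2P, a rise of 1.78-fold. The groups did not overlap in either gene.

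ACACA and FASN, which build the saturated chain, rose by small amounts. ACACA, acetyl-CoA carboxylase, was at 2091, 2137 and 2062 CPM in the controls against 2624, 2830.5 and 2567 CPM with AA2P. It overlaps the gene C12H17orf78 in the Sscrofa11.1 gene table, and reads of the overlap could be counted for either gene. FASN, fatty acid synthase, was at 386, 367 and 342 CPM in the controls against 399.8, 459 and 422 CPM with AA2P. In ACACA the lowest AA2P library exceeded the highest control clearly, whereas in FASN AA2P library 1 lay only slightly above control library 1. Log2 fold changes were 0.35 (SE 0.05, adjusted p = 1.93e-05) and 0.23 (SE 0.06, adjusted p = 0.00421, edgeR with Benjamini-Hochberg adjustment), and neither passed when the change tested for was beyond 1.2-fold.

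ELOVL6 and SCD had the largest fitted rises of this branch. ELOVL6, which lengthens saturated and monounsaturated chains, was at 98.2, 99.4 and 98.5 CPM in control libraries 1 to 3 and 233, 225 and 209 CPM in AA2P libraries 1 to 3. SCD, stearoyl-CoA desaturase, which makes monounsaturated chains, was at 122, 109.7 and 116 CPM in control libraries 1 to 3 and 263, 262 and 203 CPM in AA2P libraries 1 to 3. Each AA2P library exceeded every control by a wide margin, and the rises were 2.25-fold (adjusted p = 4.09e-11) and 2.09-fold (adjusted p = 1.33e-08, edgeR with Benjamini-Hochberg adjustment). ELOVL5, an elongase of polyunsaturated chains, was at 87.3, 84.5 and 92.4 CPM in the controls against 134, 122 and 109.9 CPM with AA2P, a rise of 1.38-fold.

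The desaturases of polyunsaturated fatty acids did not share that rise. FADS1, the delta-5 desaturase, was at 399.6, 373 and 383 CPM in the controls against 331, 358 and 342 CPM with AA2P. FADS2, the delta-6 desaturase, was at 373, 347 and 347 CPM in the controls against 346, 363 and 337 CPM with AA2P. The FADS1 groups were separated by a narrow gap and FADS1 fell 1.12-fold (adjusted p = 0.0111, edgeR with Benjamini-Hochberg adjustment), a call lost without control replicate 1 (adjusted p = 0.0669) and with library totals (log2 fold change 0.0059). The FADS2 groups overlapped, with an adjusted p of 0.670 and a 95% interval of its log2 fold change from -0.13 to 0.08, while with library totals FADS2 was called higher at 0.14 (adjusted p = 0.0244). LPIN1, which encodes a phosphatidate phosphatase that also acts on SREBP in the nucleus, was at 15.9, 17.9 and 16.6 CPM in the controls against 17.6, 18.0 and 16.8 CPM with AA2P. Its groups overlapped and its interval ran from -0.12 to 0.24, and with library totals it was called higher at 0.23 (adjusted p = 0.0268).

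The sterol branch stood above the fatty acid branch in each AA2P library. On log2(CPM + 2), which damps changes of low genes, the median difference of the sterol synthesis genes from the control mean was 1.14, 1.09 and 0.83 in AA2P libraries 1 to 3. For the fatty acid branch it was 0.34, 0.43 and 0.30, for the regulators 0.15, 0.18 and 0.067 and for the sterol handling genes -0.29, -0.26 and -0.26. The gap between the sterol and the fatty acid branch was 0.80, 0.67 and 0.53 in AA2P libraries 1 to 3 and between -0.030 and 0.034 in the controls. The gap is a description of these genes with no test, since the genes were listed with results of these data known.

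**Figure D4:**
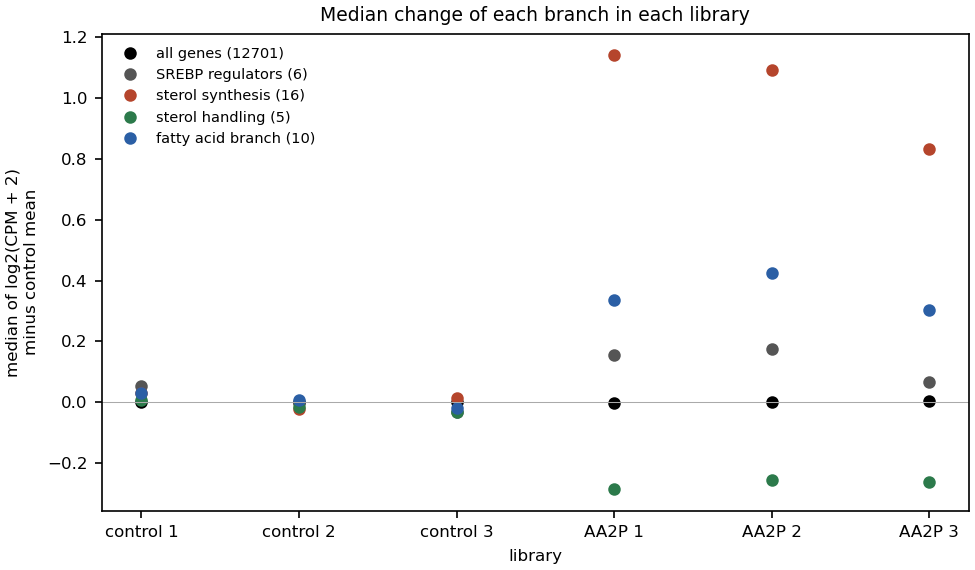
Median over the tested genes of each group of log2(CPM + 2) minus the mean of the 3 control libraries, for each library. The sterol synthesis genes stand at 0.83 to 1.14 in the AA2P libraries, above the fatty acid branch at 0.30 to 0.43, and AA2P library 3 is the lowest of the AA2P libraries for both.

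AA2P library 3 showed the smallest rise in most of these genes. Among the 28 members called higher it was the lowest AA2P library in 22, a share of 78.6%, and library 1 was the lowest in the other 6. Among the 16 sterol synthesis genes it was the lowest in 15, FDPS being the exception. Over all 3302 genes called higher it was the lowest in 56.1%. LRP2, the renal tubule marker with the highest mean over the 6 libraries, was at 92.7, 65.1 and 82.6 CPM in the controls against 742, 697 and 474 CPM with AA2P, so it too was lowest among the AA2P libraries in library 3.

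Ratios of related genes within a library do not depend on the scaling. The log2 ratio of INSIG1 to INSIG2 was 1.99 ± 0.16 in the controls and 3.83 ± 0.094 with AA2P (mean ± SD, n = 3). That of SREBF1 to SREBF2 was -1.11 ± 0.046 and -1.53 ± 0.053. NPC1 to NPC2 went from -0.49 ± 0.063 to 0.26 ± 0.099, ELOVL6 to ELOVL5 from 0.16 ± 0.071 to 0.87 ± 0.066, and FADS1 to FADS2 from 0.12 ± 0.024 to -0.021 ± 0.043. The groups did not overlap in any of these 5 pairs. Each had p = 0.1 in a two-sided exact permutation test, also after Benjamini-Hochberg adjustment over the 5 pairs, which is the smallest p that 3 against 3 libraries allow. The ratios show unequal change and not which gene of a pair changed.

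Across the 37 tested members, Spearman's rho between control CPM and log2 fold change was -0.50. It was -0.26 over all tested genes and 0.19 within the 16 sterol synthesis genes. The log2 fold change contains the control level, so noise in the controls pushes rho toward negative values by construction. FDPS, which passed the filter through the AA2P libraries, has the lowest control level of the 37 and enters each value. No conclusion is drawn from them. The correlations are across genes that share the same libraries, and CPM does not allow for gene length.

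In the further lists of these pathways the shares called are to be read against 26.0% higher and 26.1% lower over all tested genes, and with library totals against 45.1% and 14.3%. In a list of 20 other sterol genes 16 were tested. Of these 4 were higher and 5 lower, shares of 25.0% and 31.2% that were near those of all genes, with a median log2 fold change of 0.015, or 10 and 4 with library totals. VLDLR, a lipoprotein receptor, fell 2.41-fold, ACAT1, the mitochondrial thiolase, 1.75-fold, and CAV1, the caveolar coat protein, 1.49-fold (called by edgeR with Benjamini-Hochberg adjustment). LIPA, the lysosomal lipase that frees cholesterol from its esters, rose 1.55-fold. ABCG1, a cholesterol exporter, fell from 4.22 ± 0.297 to 2.37 ± 0.638 CPM (mean ± SD, n = 3). NR1H3, which encodes a liver X receptor, rose from 2.91 ± 0.228 to 4.23 ± 0.321 CPM. NR1H2, which encodes the other and was more highly counted, was at 35.6 ± 0.902 to 38.0 ± 1.47 CPM. It was not called (adjusted p = 0.201, edgeR with Benjamini-Hochberg adjustment).

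Genes that act on SREBP processing outside the core had a direction on balance that depended on the scaling. Of 13 tested in a list of 16, 2 were higher and 6 lower, or 15.4% and 46.2%, with a median log2 fold change of -0.15, but with library totals 3 were higher and 3 lower with a median of 0.017. ERLIN2, a protein of the endoplasmic reticulum, fell 1.23-fold. SPRING1, which is needed for the first protease to mature, rose 1.27-fold, and PRKAB1, a subunit of AMP-activated kinase, rose 1.43-fold. Without AA2P replicate 3 the counts of this list were 3 higher and 4 lower.

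Side branches and later steps of lipid synthesis held genes called in both directions. Of 11 tested genes of isoprenoid side branches 2 were higher and 2 lower, 18.2% each, against 26.0% and 26.1% of all tested genes, or 5 and 1 with library totals. PDSS1 and PDSS2, the subunits of the synthase for the coenzyme Q tail, rose 1.55-fold and 1.40-fold, GGPS1, geranylgeranyl diphosphate synthase, fell 1.31-fold, and FNTB, a farnesyltransferase subunit, fell 1.17-fold, a call lost with library totals. Of 21 tested genes of fatty acid supply, elongation and activation 7 were higher and 2 lower, shares of 33.3% and 9.52%, or 16 and 2 with library totals. ACSL3, an acyl-CoA synthetase of lipid droplets, rose 1.73-fold and IDH1, a source of cytosolic NADPH, 1.53-fold, while ACSL4, an acyl-CoA synthetase for arachidonate, fell 1.59-fold and ME1, malic enzyme, 1.49-fold. Of 14 tested genes of glycerolipid synthesis and droplets 5 were higher and 3 lower, shares of 35.7% and 21.4%, or 9 and none with library totals. CIDEB, a droplet protein, rose from 1.67 ± 0.125 to 5.24 ± 0.809 CPM (mean ± SD, n = 3), LPCAT3 and AGPAT2, acyltransferases of phospholipid synthesis, rose 1.28-fold and 1.21-fold, and PLIN2, a droplet coat protein, and LPIN3 fell 1.21-fold and 1.26-fold, calls lost with library totals.

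**Figure D5:**
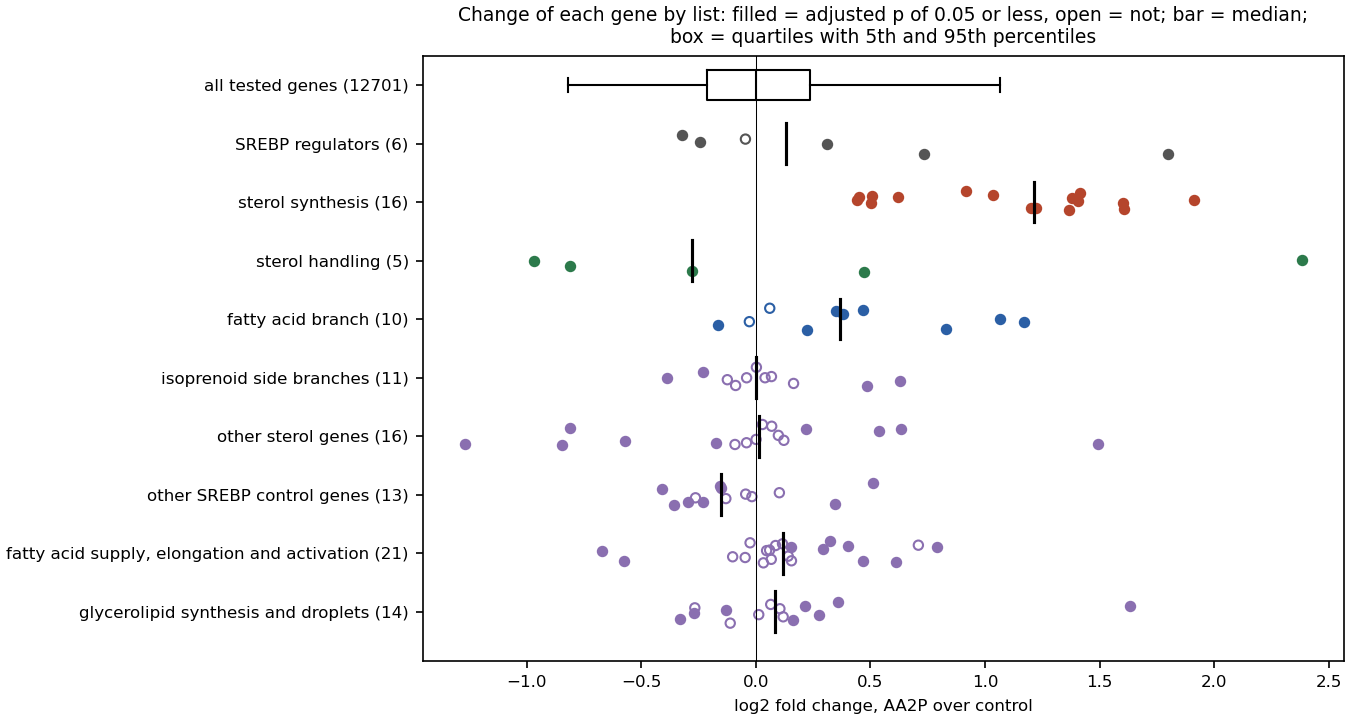
Log2 fold change, AA2P over control, of each tested gene in the 4 groups of members and 5 further lists, with filled points for an adjusted p of 0.05 or less, a bar at each median, and a box of quartiles with 5th and 95th percentiles for all tested genes. The sterol synthesis genes have a median of 1.21, while the 5 further lists have medians between -0.15 and 0.12.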

How the data were processed

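Total RNA of 3 control and 3 AA2P samples was extracted with Trizol and run on 1 lane of an Illumina HiSeq X-Ten instrument, per the labels' protocols. Among the tools, bcl2fastq and HISAT2 2.0.5 appear in the submitters' processing notes. The counting tool, strand setting, annotation and build used are not given in the sources used here. What the authors deposited were whole-number read counts per pig Ensembl gene, without normalization. Every other value was computed from them. Symbols were found for 13141 of 17670 genes in a table of gene names. Because the counting is unknown, genes that overlap another or have near-identical copies are uncertain. In the RefSeq table of Sscrofa11.1, used for neighbours alone, 5 of 41 members (INSIG2, ACAT2, PMVK, NPC1 and ACACA) overlap another protein-coding gene.

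The test was edgeR 4.0.16 in R 4.3.3 (quasi-likelihood F test, TMM factors, filterByExpr with the group, group as the only term), with Benjamini-Hochberg adjustment over 12701 genes and a threshold of 0.05. Common biological variation (BCV) was 5.49%. Fold changes compare AA2P with control on the log2 scale, and each SE was obtained as the size of the log2 fold change divided by the root of F. Replicates differed by more than sampling noise (chi-square per degree of freedom 2.67 to 12.1). The code was tested on simulated data.

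Alternatives were DESeq2 size factors, library totals, no filter, a stricter filter (1 CPM or more in 3 libraries), limma-voom (limma 3.58.1), the Wald test of DESeq2 1.42.0, the replicate number as a block, a threshold of 0.01, edgeR's glmTreat for a change beyond 1.2-fold, and each library left out in turn. The members and lists were chosen with earlier results of these data known. All members could be named, and from each further list up to 4 called genes by smallest p and the largest increase and decrease, and from marker lists the most abundant gene and those at 3 counts or fewer. LIPA, ABCG1, NR1H3, NR1H2, TCP1, PAX2, AMH, SOX9, WT1 and NR5A1 are not covered by this naming rule and were chosen after their values were seen. Some genes of the sterol pathway are not reported here.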

Additional observations from a re-analysis of the deposited data

How the results depend on the processing

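All 16 sterol synthesis genes, or 15 where a filter of 1 CPM removed FDPS, were called higher under every alternative run, and without a filter TM7SF2 made 17. Of 554 member values under the alternatives 536 kept their direction and side of the threshold, 11 lost the call, 1 gained it and 6 changed sign. With library totals 5727 genes were called higher and 1822 lower, 3 members were lower, 1 regulator and 0 fatty acid genes were lower, and medians were 0.68 for the members, 0.30 for the regulators, 1.38 for sterol synthesis, -0.11 for sterol handling and 0.54 for the fatty acid branch. INSIG2, FADS1 and FADS2 then had log2 fold changes of 0.12, 0.0059 and 0.14. A test beyond 1.2-fold called 1678 genes higher and 1544 lower, with 2 members, 0 regulators and 0 fatty acid genes lower, and a threshold of 0.01 left 0 fatty acid genes lower. Without a filter the medians were 0.62 for the members and 0.090 for sterol handling, a change of sign, since MYLIP with its few counts then entered a list of 6. With 1 library left out, the median lay between 0.49 and 0.62 for the members and between -0.30 and -0.26 for sterol handling, and 0 to 1 fatty acid genes were lower, 0 without control replicate 1. INSIG2 ran from -0.14 to 0.048 and FADS2 from -0.058 to 0.0057, with 0.00035 without AA2P replicate 3. The cause of these changes was not tested. With the replicate number as a block, 28 members were higher and 6 lower, and 3094 and 3110 of all genes. Same-numbered libraries did not deviate together (correlations of -0.039, -0.017 and -0.055 across genes), and 0 of 6 libraries correlated best with its own number, so the numbers were not taken as pairs. FDPS, TM7SF2 and MYLIP have few counts at this depth, and whether annotation or counting lowers them was not tested.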
